A study of Mus musculus with 9 samples.

Results

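MYC, its partner MAX and the factors that oppose MYC at DNA were examined in mRNA sequencing of mouse induced regulatory T cells (Treg), CD4 T cells driven in culture to express Foxp3. The set held 10 genes of the 28111 in the table of raw counts: Myc, Mycn, Max, Mlx, Mxd1, Mxd3, Mxd4, Mxi1, Mnt and Mga. The members were chosen by gene symbol, and the set was proposed after earlier results of these libraries were known, among them higher levels of MYC target genes in Glut1 transgenic libraries. Values by genotype are therefore a description, and nothing is supported by them. All 10 members passed the filter on low counts.

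The mice were C57BL/6J, and 4 of the 9 libraries carried the transgene for Glut1 (Glut1Tg) while the other 5 were wild type (WT). Glut1, encoded by Slc2a1, carries glucose across the plasma membrane, and the labels do not give the promoter of the transgene. Each library also belonged to a mouse group: Glut1Tg 1 and WT 2, 4 and 5 (n = 4) made up mouse group 2, and Glut1Tg 2, 3 and 4 with WT 1 and 3 (n = 5) made up mouse group 1. The labels do not explain how the mouse groups differ. Nor do they say which libraries come from separate animals or cultures, so every p-value below refers to the spread between libraries, and that spread may be technical.

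MYC is a basic helix-loop-helix leucine zipper factor that binds DNA as a dimer with MAX, at E-boxes with the core CACGTG, and activates genes of growth, ribosome biogenesis and metabolism. The MXD proteins, MXI1 and MNT also pair with MAX at these sites, and recruit SIN3 and histone deacetylases to repress them; MGA joins MAX in a variant Polycomb complex. MLX is a second, MAX-like hub that pairs with MNT, MXD1 and MXD4 and with the glucose-sensing MondoA and ChREBP. In T cells MYC is induced on activation and drives the growth and metabolic change that precede division, while several MXD proteins are known from resting or differentiating cells.

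Totals ranged from 20881035 to 31196428 counts per library. Slc2a1, which checks the genotype labels, stood at 260.2, 496, 279 and 457 CPM (read counts scaled to a common library total, TMM-adjusted) in Glut1Tg 1 to 4, against 29.7 to 58.7 CPM in the 5 WT libraries. Foxp3 ranged from 621 to 1164 CPM and Cd4 from 448 to 802 CPM, and none of the 10 Treg markers was at 0 in any library. Glut1Tg 1 and WT 2, both of mouse group 2, lay apart on the first principal component (50.7% of the variance, scores -100.5 and -88.2). Their 6 proliferation genes summed to 4465 and 4494 CPM, against 818 to 1992 CPM elsewhere. Glut1Tg 3, of mouse group 1, lay apart on the second component (20.4%, score -78.4). Its mast cell markers summed to 2534 CPM, against 93.2 to 853 CPM in the other libraries. Its myeloid markers summed to 455.9 CPM, against 6.81 to 43.7 CPM elsewhere. Its erythroid and platelet markers summed to 997 CPM, against 4.31 to 275 CPM elsewhere. Xist stood at 256 and 340 CPM in Glut1Tg 2 and 4, and at no more than 1.32 CPM in the other 7 libraries. The Glut1Tg libraries thus came from both sexes. Both Xist-high libraries were of mouse group 1, and no WT or mouse group 2 library was Xist-high. Sex was therefore uneven between genotypes and between mouse groups, and its part in the differences below was not tested.

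The start-site sequences of the 4 members that changed most between mouse groups are shown because they differ in the E-box that MYC, MAX and their antagonists bind. Each runs from 250 bases before to 50 after the annotated start, from RefSeq on GRCm38.p6, and capitals mark CACGTG, a motif that reads the same on both strands. Mnt lies at chr11:74830674-74830973 (plus strand), Mlx at chr11:101087040-101087339 (plus), Mxd1 at chr6:86669110-86669409 (minus) and Mxd3 at chr13:55329682-55329981 (minus).
Mnt: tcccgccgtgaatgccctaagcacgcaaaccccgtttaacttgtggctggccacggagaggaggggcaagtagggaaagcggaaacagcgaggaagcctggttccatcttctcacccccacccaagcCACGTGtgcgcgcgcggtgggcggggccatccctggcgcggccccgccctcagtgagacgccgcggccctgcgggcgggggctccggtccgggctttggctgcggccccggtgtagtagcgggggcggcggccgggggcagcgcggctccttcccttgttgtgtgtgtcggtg
Mlx: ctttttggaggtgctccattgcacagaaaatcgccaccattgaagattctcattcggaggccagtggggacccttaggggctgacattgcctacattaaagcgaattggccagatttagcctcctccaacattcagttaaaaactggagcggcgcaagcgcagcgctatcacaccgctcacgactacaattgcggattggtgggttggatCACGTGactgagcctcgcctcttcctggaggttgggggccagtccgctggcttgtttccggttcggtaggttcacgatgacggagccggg
Mxd1: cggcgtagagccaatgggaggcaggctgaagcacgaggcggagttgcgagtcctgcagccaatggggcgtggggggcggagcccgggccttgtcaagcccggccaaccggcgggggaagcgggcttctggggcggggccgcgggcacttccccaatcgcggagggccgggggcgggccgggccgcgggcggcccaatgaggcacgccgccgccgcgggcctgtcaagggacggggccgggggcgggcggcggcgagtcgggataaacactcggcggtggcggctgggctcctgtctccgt
Mxd3: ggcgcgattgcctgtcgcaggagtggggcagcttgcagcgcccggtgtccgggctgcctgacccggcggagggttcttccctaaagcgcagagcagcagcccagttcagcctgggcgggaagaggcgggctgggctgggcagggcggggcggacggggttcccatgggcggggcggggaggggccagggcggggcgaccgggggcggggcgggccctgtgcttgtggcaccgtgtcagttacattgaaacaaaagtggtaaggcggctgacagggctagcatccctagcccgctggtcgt
CACGTG began 123 bases before the start of Mnt and 40 bases before that of Mlx, and did not occur in the windows of Mxd1 and Mxd3. RefSeq windows were matched for 9 of the 10 members, all but Myc. Max held the motif 3 bases before its start, though the end of its window matched no GENCODE transcript of Max. Mxd4 held the motif 219 bases before its start. The windows of Mycn, Mxi1 and Mga did not hold these letters. Of all 32851 promoter windows of this length, 7.15% held it. Among the members with a matched window, the motif thus stood in genes that were lower (Mnt), higher (Mlx) and not called (Max and Mxd4) between mouse groups.

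Per kilobase of exon, the scale on which genes can be compared, Max was the first or second member in every library, and the place of Myc differed between them. Myc averaged 62.8 ± 41.1 CPM per kb over all libraries and Max 54.8 ± 8.32 CPM per kb (SD, n = 9), and their ranges overlapped. Myc lay below Mxd1 in Glut1Tg 2 and 4 and WT 1 and 3, all of mouse group 1 except Glut1Tg 3. Mxd1 (30.0 ± 11.1 CPM per kb), Mnt (22.7 ± 11.7) and Mxd4 (22.7 ± 6.90) formed the next tier, followed by Mlx (13.6 ± 6.995), Mxd3 (11.4 ± 9.39), Mxi1 (7.33 ± 1.58) and Mga (5.61 ± 1.27). Neighbours in this order overlapped over the libraries, except that the lowest Max level lay above the highest Mxd1 level and the lowest Mga level above the highest Mycn level. Mycn, the MYC paralogue of neural and stem cells, averaged 0.540 ± 0.811 CPM per kb and was the lowest member in all 9 libraries. Max was the least variable member over the libraries, with an SD of 0.20 on the log2 CPM scale against 0.45 for the median gene, while Myc varied more (SD 0.86).

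**Figure D1:**
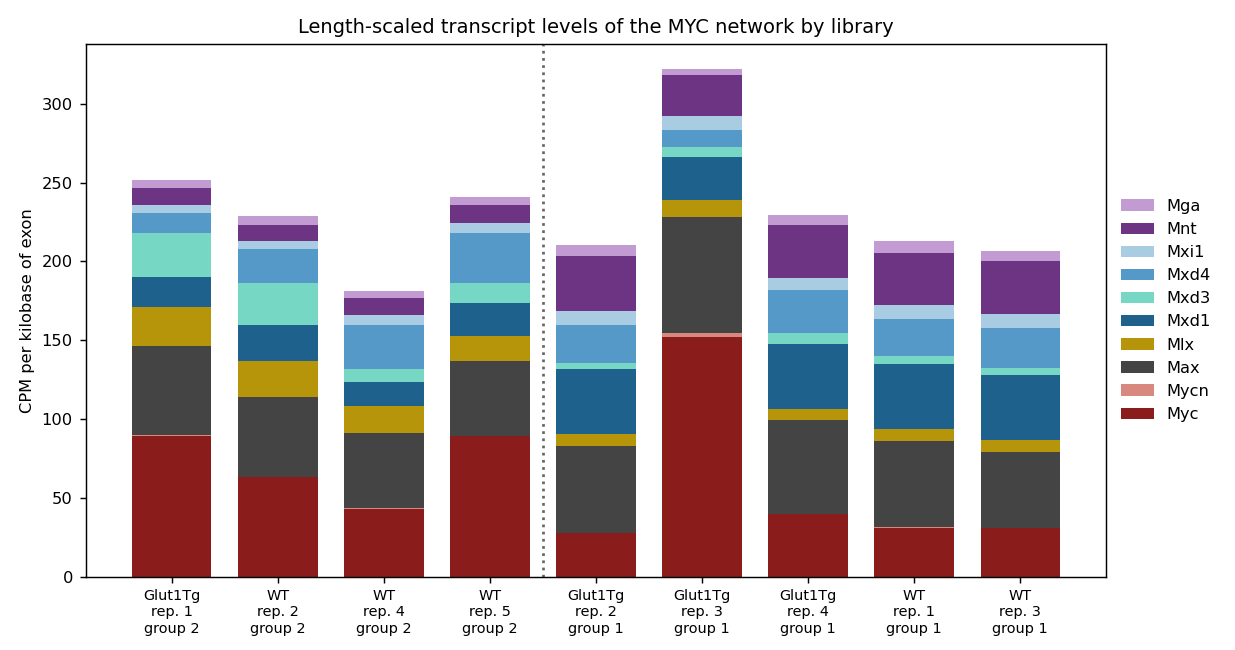
Stacked bars of the level of each member in each library in CPM per kilobase of exon, with mouse group 2 libraries left of mouse group 1 libraries. Myc ranged from 27.4 to 152 CPM per kb while Max stayed between 47.3 and 73.7 CPM per kb, and Mycn was lowest throughout.

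The network differed between mouse groups. Mnt, Mxd1 and Mxi1 were lower and Mlx and Mxd3 were higher in mouse group 2 than in mouse group 1, with genotype in the model (edgeR quasi-likelihood test, adjusted p under 0.05 over 14817 genes). Myc, Mycn, Max, Mxd4 and Mga did not pass. Across all genes tested, 24.1% were called between mouse groups, 13.1% higher and 11.0% lower in mouse group 2. Of the 10 members 5 were called, 2 of them higher and 3 lower. Whether that count exceeds the share over all genes was not tested. The same 5 members were those whose levels did not overlap between the mouse groups, which held for 21.8% of genes. The median log2 fold change of the 10 members was -0.24, against -0.014 over all genes.

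Mnt, a broadly expressed MAX-binding repressor that limits MYC activity, was the member with the smallest p, ranked 3 of 14817 genes. It stood at 47.3, 47.3, 51.7 and 51.0 CPM in Glut1Tg 1 and WT 2, 4 and 5 of mouse group 2, against 162.6, 121, 157, 151 and 156 CPM in Glut1Tg 2, 3 and 4 and WT 1 and 3 of mouse group 1. The means were 49.4 ± 2.38 CPM (SD, n = 4) and 149.8 ± 16.4 CPM (SD, n = 5), a fold of 0.324 with a 95% interval of 0.265 to 0.396 (log2 value -1.63, SE 0.13; edgeR adjusted p = 0.0012). The 4 libraries of mouse group 2 lay close together. Their proliferation genes summed to between 1184 and 4494 CPM, and the part of proliferation in the Mnt level was not tested. Within mouse groups the SD of Mnt was 0.14 on the log2 scale, and 6.42% of genes had a smaller one. No other annotated gene overlaps Mnt (ENSMUSG00000000282; chromosome 11, plus strand, bases 74830920 to 74845725 of mm10).

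Mxd1 (ENSMUSG00000001156, chromosome 6), a repressor known from cells that leave the cell cycle, was also lower in mouse group 2. Its levels were 136.5, 159, 107 and 147 CPM in Glut1Tg 1 and WT 2, 4 and 5, against 291, 196, 288, 292 and 293 CPM in Glut1Tg 2, 3 and 4 and WT 1 and 3. Glut1Tg 3 was the lowest of mouse group 1 and still above all of mouse group 2. The fold was 0.492 with a 95% interval of 0.373 to 0.649 (log2 value -1.02, SE 0.18; edgeR adjusted p = 0.00584). Mxi1 (ENSMUSG00000025025, chromosome 19), a repressor also called MXD2, moved the same way by less. It averaged 39.6 ± 3.94 CPM in mouse group 2 (SD, n = 4) and 58.4 ± 4.91 CPM in mouse group 1 (SD, n = 5), a fold of 0.664 (log2 fold change -0.59, SE 0.13; edgeR adjusted p = 0.0127).

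Mlx (ENSMUSG00000017801), located on chromosome 11 (plus strand, bases 101087277 to 101092207), was higher in mouse group 2. It stood at 49.5, 46.3, 34.5 and 32.2 CPM in Glut1Tg 1 and WT 2, 4 and 5, against 15.02, 21.02, 15.03, 15.7 and 14.7 CPM in Glut1Tg 2, 3 and 4 and WT 1 and 3. The groups did not overlap, and the fold was 2.64 with a 95% interval of 2.01 to 3.46 (log2 value 1.398, SE 0.17; edgeR adjusted p = 0.00199). On the log2 CPM scale Mlx was nearly the mirror of Mnt: with the sign turned, the centred patterns differed by 0.16 on average over the 9 libraries. Exons of Mlx share 385 bases with Psmc3ip on the opposite strand, and the notes do not give the strand setting of the counting. Psmc3ip ranged from 2.04 to 15.6 CPM and was also higher in mouse group 2 (log2 fold change 1.65, SE 0.46, edgeR adjusted p = 0.0301). Glut1Tg 1 and WT 2 held its high values (15.6 and 12.1 CPM). WT 4 and 5 (3.80 and 3.92 CPM) lay within its mouse group 1 range of 2.04 to 5.27 CPM. The part of Psmc3ip in the Mlx counts was not tested.

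Mxd3, an MXD member known for its expression in S phase and in proliferating progenitors, unlike its relatives, had the widest fold of the called members. It stood at 65.4, 63.7, 19.9 and 29.9 CPM in Glut1Tg 1 and WT 2, 4 and 5 of mouse group 2, against 8.75, 14.3, 17.6, 11.1 and 11.4 CPM in Glut1Tg 2, 3 and 4 and WT 1 and 3 of mouse group 1. The fold was 3.88 with a 95% interval of 2.24 to 6.74 (log2 value 1.96, SE 0.35; edgeR adjusted p = 0.00662). The 2 libraries of mouse group 2 that stood apart held the high values, and they also had the highest proliferation sums, 4465 and 4494 CPM against 1184 and 1992 CPM in WT 4 and 5. Its exons (ENSMUSG00000021485, chromosome 13) share 105 bases with Prelid1 on the opposite strand, which did not pass between mouse groups (log2 fold change 0.46; edgeR adjusted p = 0.0891).

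**Figure D2:**
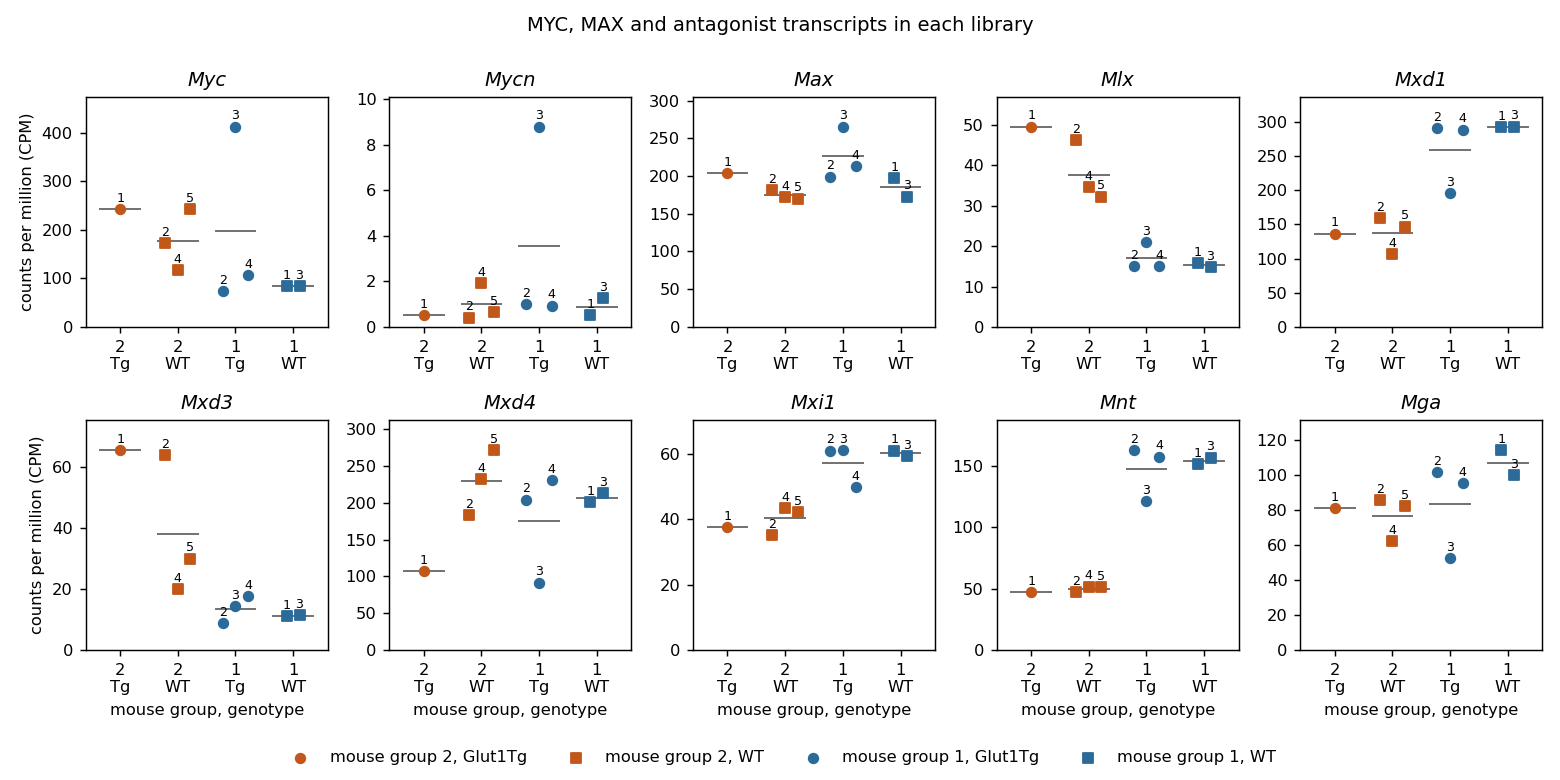
CPM of each member in each library, with mouse group 2 left of mouse group 1, points for libraries, numbered by replicate and shaped by genotype, and lines for the mean of each genotype within a mouse group. Mnt, Mxd1 and Mxi1 lie lower and Mlx and Mxd3 higher in mouse group 2, with no overlap; Glut1Tg 3 is the highest point of mouse group 1 for Myc (412 CPM) and Mycn (8.79 CPM).

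How many members were called depended on the libraries that stood apart. Without Glut1Tg 1, the calls were Mlx, Mxd1 and Mnt, where 4.30% of genes passed; without both Glut1Tg 1 and WT 2 they were Mlx and Mnt, where 3.74% passed. In that smaller set Mxd1 kept its size (log2 fold change -1.19; edgeR adjusted p = 0.0522), and Mxd3 and Mxi1 had log2 fold changes of 1.16 and -0.47 (edgeR adjusted p = 0.108 and 0.129). Among the 5 WT libraries alone, none of which carries the transgene, Mlx, Mxd1 and Mnt were called of 9 members tested, with 6.07% of genes called. Without Glut1Tg 1, WT 2 and Glut1Tg 3, 7 members were called where 21.8% of genes passed: the 5 of the whole series, Myc (log2 fold change 1.11; edgeR adjusted p = 0.0379) and Mga (-0.55; edgeR adjusted p = 0.0334). Mnt and Mlx were called in all 17 alternatives, Mnt with log2 fold changes from -1.66 to -1.57 and Mlx from 1.14 to 1.47.

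Myc did not pass between mouse groups. It stood at 243, 172, 116 and 243 CPM in Glut1Tg 1 and WT 2, 4 and 5 of mouse group 2, against 74.5, 412, 107, 84.3 and 83.4 CPM in Glut1Tg 2, 3 and 4 and WT 1 and 3 of mouse group 1. All 4 libraries of mouse group 2 lay above all of mouse group 1 except Glut1Tg 3, the highest of all. The log2 fold change was 0.79 (SE 0.53, 95% interval -0.40 to 1.98; edgeR adjusted p = 0.299). Glut1Tg 3 had the highest sums of mast cell, myeloid, and erythroid and platelet transcripts. Without it, Myc was called higher in mouse group 2 (log2 fold change 1.22, edgeR adjusted p = 0.00897). The part of those transcripts in the high Myc of Glut1Tg 3 was not tested, and in bulk RNA more cells of a type and more RNA per cell cannot be told apart.

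Max encodes the obligate partner of MYC and a partner of its antagonists. It averaged 182 ± 15.3 CPM in mouse group 2 (SD, n = 4) and 209 ± 34.5 CPM in mouse group 1 (SD, n = 5). The log2 fold change of Max was -0.11 (SE 0.13, 95% interval -0.39 to 0.18, edgeR adjusted p = 0.558). Mxd4 averaged 198 ± 70.7 and 188 ± 55.1 CPM (log2 fold change -0.17, SE 0.31; edgeR adjusted p = 0.72), and it was lowest in Glut1Tg 1 (107 CPM) and Glut1Tg 3 (91.7 CPM). Its exons share 514 bases with a predicted antisense gene on the opposite strand. Mga, the largest of these proteins, averaged 77.8 ± 10.5 CPM in mouse group 2 and 92.6 ± 23.5 CPM in mouse group 1 (log2 fold change -0.31, SE 0.22; edgeR adjusted p = 0.334). Mycn had 10 to 49 counts per library except in Glut1Tg 3, which had 220; its log2 fold change between mouse groups was -0.79 with an SE of 1.099.

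**Figure D3:**
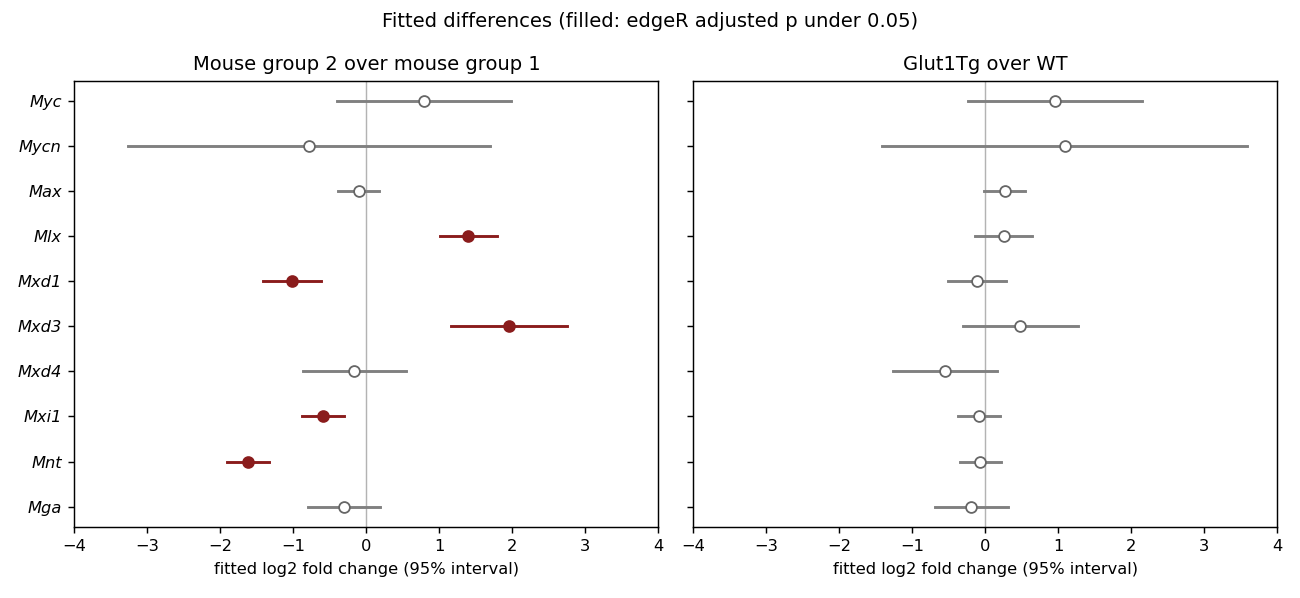
Log2 fold change with 95% interval of each member for mouse group 2 over mouse group 1 and for Glut1Tg over WT, from the edgeR fit with both terms; filled points passed at adjusted p under 0.05. The intervals of 5 members lie clear of 0 and pass for mouse group, and no member passes for genotype.

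Mnt and Mxd1 were lower and Mlx and Mxd3 higher in mouse group 2 without overlap, so their ratios separate the mouse groups by construction. Per kilobase, the ratio of Mnt to Mlx was 0.413, 0.441, 0.647 and 0.684 in Glut1Tg 1 and WT 2, 4 and 5 of mouse group 2, against 4.68, 2.49, 4.52, 4.15 and 4.59 in Glut1Tg 2, 3 and 4 and WT 1 and 3 of mouse group 1. On this scale Mlx exceeded Mnt in every library of mouse group 2, and Mnt exceeded Mlx in every library of mouse group 1. That crossing depends on the scaling by length. In CPM, Mnt lay above Mlx in WT 2 (47.3 against 46.3), WT 4 (51.7 against 34.5) and WT 5 (51.0 against 32.2). It lay below Mlx in Glut1Tg 1 (47.3 against 49.5). The part of Psmc3ip in the Mlx counts was not tested. The ratio of Mxd1 to Mxd3 was 0.699, 0.837, 1.80 and 1.64 in mouse group 2, against 11.1, 4.57, 5.49, 8.84 and 8.59 in mouse group 1, in the same library order. Myc relative to the sum of its 6 antagonists was 1.11, 0.688, 0.590 and 1.01 in mouse group 2, against 0.229, 1.82, 0.322, 0.261 and 0.255 in mouse group 1, where Glut1Tg 3 was again the exception. Myc was the highest member per kilobase in Glut1Tg 1, Glut1Tg 3, WT 2 and WT 5, and Max was the highest in the other 5 libraries.

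Between genotypes no member passed. Across all genes, Slc2a1 was the single gene called (0.00675% of genes), with 889 genes at an unadjusted p under 0.05. Members had 5 positive and 5 negative fold changes, with a median log2 fold change of 0.091 against 0.022 over all genes. Myc averaged 209 ± 154 CPM over the 4 Glut1Tg libraries and 140 ± 67.8 CPM over the 5 WT libraries (SD), a log2 fold change of 0.95 (SE 0.53, 95% interval -0.24 to 2.14; edgeR adjusted p = 0.681). Glut1Tg 1 (243 CPM) lay level with the highest WT library and Glut1Tg 3 (412 CPM) above it, while Glut1Tg 2 (74.5 CPM) lay below the WT range of 83.4 to 243 CPM and Glut1Tg 4 (107 CPM) within it. Without Glut1Tg 3 the log2 fold change of Myc was 0.25, and without Glut1Tg 1 and WT 2 it was 1.19. Without all 3 of these libraries it was 0.11; the Glut1Tg libraries then left are the Xist-high Glut1Tg 2 and 4, so in that setting genotype and sex cannot be told apart.

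Max was the 1 member whose genotypes did not overlap, as in 1.59% of all genes. It stood at 204, 199, 265 and 213 CPM in Glut1Tg 1 to 4, against 197, 181, 173, 172 and 170.1 CPM in WT 1 to 5. The lowest Glut1Tg library (199 CPM) and the highest WT library (197 CPM) were nearly level, and the log2 fold change was 0.26 (SE 0.13, 95% interval -0.021 to 0.55; edgeR adjusted p = 0.681). Mxd4 averaged 158 ± 69.2 CPM in Glut1Tg and 220 ± 33.7 CPM in WT, a log2 fold change of -0.55 (SE 0.31; edgeR adjusted p = 0.681). Its 2 lowest Glut1Tg values were those of Glut1Tg 1 and 3, and its log2 fold change was -0.26 without Glut1Tg 1 and WT 2 and 0.061 without Glut1Tg 3 as well. For Mnt the genotype fold was 0.952 (0.783 to 1.16; edgeR adjusted p = 0.861), and Mlx (log2 fold change 0.25), Mxd1 (-0.11), Mxd3 (0.48), Mxi1 (-0.081) and Mga (-0.19) had edgeR adjusted p-values of 0.682 to 0.843. A difference in the genotype effect between mouse groups was not called for any gene (0% of genes; edgeR interaction test, 786 genes at an unadjusted p under 0.05, 2 genes called by DESeq2 and 0 by limma-voom), though 140 genes, none of them members, were called without WT 2 and 3 without Glut1Tg 3. The members' adjusted p-values in that edgeR test ran from 0.741 to 0.986, and mouse group 2 holds 1 Glut1Tg library.

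Genes that work with the network also differed between mouse groups. These and the following lists were chosen with earlier results of these data known, and their counts are read against the 13.1% of genes called higher and 11.0% called lower. Of 4 tested related helix-loop-helix factors, 3 were lower in mouse group 2: Usf1 (log2 fold change -0.998), Tfap4 (-0.88) and Usf2 (-0.47), while Mlxip, which encodes MondoA, had -0.61 (edgeR adjusted p = 0.0808). Among 10 corepressors and partners of MXD and MNT, 4 were higher, the histone deacetylases Hdac1 (0.99) and Hdac2 (1.02), Sap130 (0.55) and Rbbp7 (1.01), and Suds3 was lower (-0.48). The abundant members Ncor1 and Rbbp4 had log2 fold changes of -0.042 and 0.28 and did not pass. Of 10 partners of MGA in the variant Polycomb complex, E2f6 (1.23) and Tfdp1 (1.59) were higher and Rnf2 (-1.19), Rybp (-0.77) and Yaf2 (-0.60) lower.

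Of 11 MYC coactivators and cofactors, Kat2a (log2 fold change 0.66) and the ATPases Ruvbl1 (1.26) and Ruvbl2 (1.46) were higher in mouse group 2, while Ccnt1 (-0.51) and Zbtb17, which encodes the MYC partner MIZ1 (-0.96), were lower. Among 11 tested regulators of MYC protein stability, Aurka (1.296) was higher; Fbxw7, the ubiquitin ligase subunit that marks MYC for degradation (-0.81), the deubiquitinase Usp36 (-0.43) and the kinase Pim1 (-0.77) were among those lower. These changes ran in both directions within each list, and the list medians were 0.047 for coactivators and -0.43 for stability. Without Glut1Tg 1 and WT 2, 3.74% of genes passed. Of these and the relatives' and corepressors' lists 1 gene did, Rybp, a partner of MGA. Without Glut1Tg 3 as well, 21.8% of genes passed. Calls were then 3 higher and 4 lower among coactivators, 4 lower for stability and 3 lower among the relatives. Corepressors had 3 higher and 1 lower, and partners of MGA 2 higher and 3 lower.

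The listed MYC target genes also differed between mouse groups. Of 30 MYC-activated targets, 9 were higher in mouse group 2, among them the transferrin receptor Tfrc (log2 fold change 1.95), the cyclin Ccnd2 (1.51) and Ldha (0.97), and 2 were lower, the nucleolar genes Gnl3 (-0.93) and Wdr43 (-0.64). The most abundant, Ncl and Npm1, had log2 fold changes of 0.096 and 0.094. Of 10 MYC-repressed targets, 6 were lower, the antiproliferative Btg1 (-1.69) and Btg2 (-1.14), Gadd45a (-1.54), Ccng2 (-1.54), the CDK inhibitor Cdkn1b (-1.14) and Klf2 (-1.095), and 2 were higher, Cdkn2c (1.29) and Ndrg1 (1.12). In the same comparison 5 of 6 proliferation genes were higher in mouse group 2, and their part in these counts was not tested. Without Glut1Tg 1 and WT 2, where 3.74% of genes passed, the median of the activated list was -0.12 in place of 0.46. That list had 0 genes called higher and 2 lower. The median of the repressed list was -0.59 in place of -1.12, with 0 genes called lower and 1 higher, Ndrg1. Without Glut1Tg 3 as well, 21.8% of genes passed. The activated list then had 2 genes called higher and 6 lower (median -0.121). The repressed list had 1 higher and 6 lower (median -0.585).

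Glut1Tg 1 and WT 5, both of mouse group 2, had the same Myc level (243 CPM each), yet the mean of the 30 activated targets, as log2 CPM centred per gene, was 0.95 in Glut1Tg 1, the highest of all libraries, and -0.51 in WT 5, the lowest. Proliferation genes summed to 4465 CPM in Glut1Tg 1 and 1992 CPM in WT 5. Glut1Tg 3, with the highest Myc, had a mean of 0.54, and WT 2 had 0.40; the other 6 libraries lay between -0.40 and -0.19 or at the -0.51 of WT 5. The mean of the 10 repressed targets was -0.52, -0.25, -0.12 and -0.18 in Glut1Tg 1 and WT 2, 4 and 5 of mouse group 2, against 0.20, 0.031, 0.29, 0.39 and 0.17 in Glut1Tg 2, 3 and 4 and WT 1 and 3 of mouse group 1. The 5 libraries with the highest Myc were the 4 of mouse group 2 and Glut1Tg 3, and these had the lowest repressed means. Within these 5 the order did not follow Myc. Glut1Tg 3, with the highest Myc, had the highest repressed mean of the 5 (0.031), and Glut1Tg 1 and WT 5, level in Myc, lay at -0.52 and -0.18. On the activated targets WT 5 and WT 4 were the lowest. Between genotypes 30 of 30 activated targets had positive fold changes, with a median log2 fold change of 0.66, against 52.4% of all genes and a median of 0.022. None of the 30 passed. Without Glut1Tg 1 and WT 2 the count was 28 of 30 and the median 0.30, and without Glut1Tg 3 as well it was 18 of 30 and the median 0.034. Of the 10 repressed targets 2 had positive genotype fold changes, against 3 without Glut1Tg 1 and WT 2 and 6 without Glut1Tg 3 as well.

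**Figure D4:**
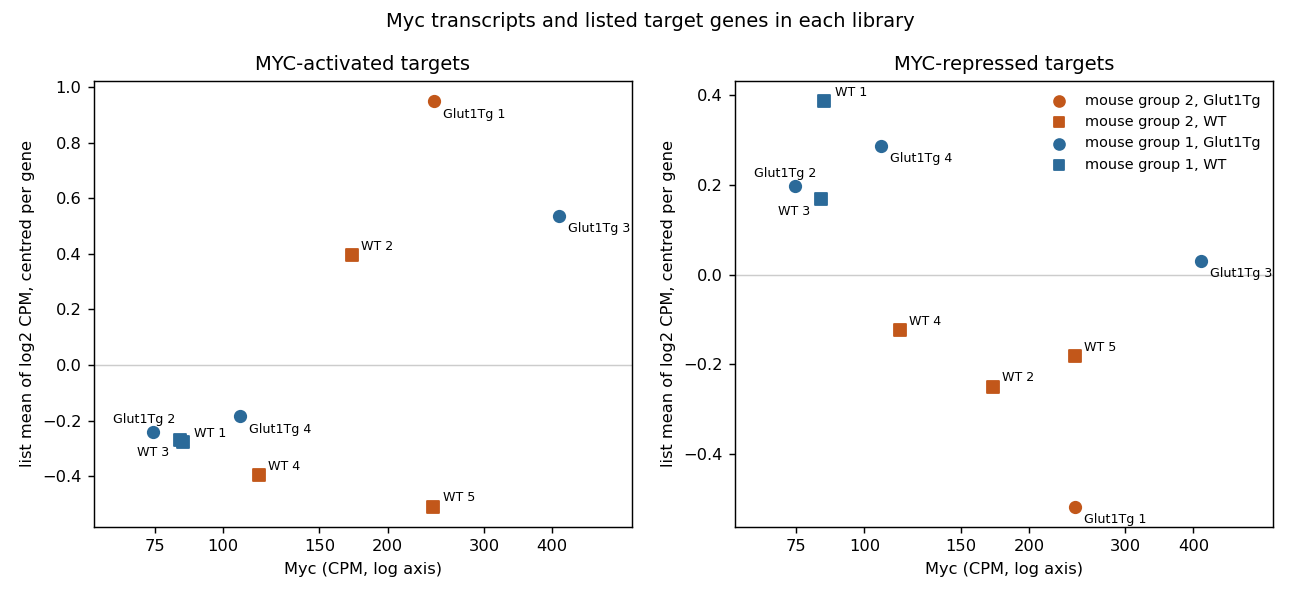
Myc (CPM, log axis) against the mean of 30 MYC-activated targets and of 10 MYC-repressed targets (log2 CPM centred per gene) in each of 9 libraries, coloured by mouse group and shaped by genotype. Glut1Tg 1 and WT 5 share a Myc level of 243 CPM and lie at 0.95 and -0.51 on the activated targets.

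Genes with the pattern most like a member were sought by the mean absolute difference of centred log2 CPM over the 9 libraries. Candidates were 9602 genes of at least 5 CPM on average. Members and genes with predicted or clone-based symbols (such as Gm and Rik) were left out. For Mxd3 they were the cell cycle genes Tcf19 (difference 0.093), Ska2 (0.12) and the spindle factor Tpx2 (0.12), where the median gene lay 0.86 away. For Mxd1 they were Cbll1 (0.080), the Polycomb-related Asxl1 (0.082) and the kinase Pkn2 (0.092; median gene 0.57). For Mxd4 they were the kinase Dyrk1b (0.10), Pacsin1 (0.11) and Arhgef18 (0.11; median gene 0.49). Among the candidates, Myc had none so close. The nearest, S100a4, F2rl3 and Ogfrl1, lay 0.262, 0.285 and 0.285 away on average, with the median gene at 0.74.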

How the data were processed

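Per the labels' protocols, stranded TruSeq mRNA libraries were sequenced as 75 bp paired-end reads. The submitters' processing notes name TopHat2, featureCounts, bcl2fastq, DESeq2 and the build mm10, without versions, parameters or a strand setting. The deposited table held raw counts per gene, whole numbers that the authors had not normalized; a deposited table of transformed values was not used. The members, lists and rules for naming genes (all members, the most abundant and all called genes of each list, and 3 nearest patterns for 4 members) were chosen with earlier results of these data known.

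In edgeR 4.0.16 (R 4.3.3), filterByExpr by genotype kept 14817 genes, TMM scaled the libraries, and quasi-likelihood tests with terms for mouse group and genotype gave log2 fold changes and two-sided p-values, with Benjamini-Hochberg adjustment over all genes tested. The SE is the log2 fold change divided by the root of F, and intervals are 95% t intervals. CPM used TMM-scaled totals; log2 CPM had a prior count of 2; lengths are exon unions of GENCODE M21. The fit was tested on simulated data. Every pair of libraries differed by more than sampling noise (smallest chi-square per gene 20.6). DESeq2 1.42.0, limma-voom (limma 3.58.1), other scaling and filters, other terms, single mouse groups or genotypes and left-out libraries were tried; fits on WT libraries alone and without Glut1Tg 3 together with both libraries apart were added after the data were seen. Lists of Treg, mast cell, myeloid, B cell, NK cell, erythroid and platelet, CD8 T cell, proliferation and sex-linked genes described the libraries. Of the genes that the naming rule took, 1 is not reported here.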

Additional observations from a re-analysis of the deposited data

Results flagged for a closer look

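Each member was examined in each genotype and in each mouse group for a library far from the others (Dixon's ratio of the gap to the range); 10 of 40 groups held one, where chance flags about 1 in 20, and the members share libraries. In 7 of the 10 that library was Glut1Tg 3. It was the highest of mouse group 1 for Myc (412 CPM, the next 107), for Mycn (8.79, the next 1.26) and for Mlx (21.02, the next 15.7). It was the lowest of mouse group 1 for Mxd1 (196 CPM, the next 288), for Mxd4 (91.7, the next 201) and for Mnt (121, the next 151). Among Glut1Tg libraries it was also the highest for Mycn (8.79 CPM, the next 0.995). Its mast cell, myeloid, and erythroid and platelet markers summed to 2534, 455.9 and 997 CPM. Their part in these values was not tested.

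Glut1Tg 1 was the highest Glut1Tg library for Mxd3 (65.4 CPM, the next 17.6), and is the 1 Glut1Tg library of mouse group 2. Glut1Tg 4 was the lowest of mouse group 1 for Mxi1 (49.7 CPM, the next 59.2). WT 4 was the highest of mouse group 2 for Mycn (1.92 CPM, the next 0.659), at 49 counts.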

How the results depend on the processing

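No member was called between genotypes under any alternative, and Mnt and Mlx were called between mouse groups under every one. Genes called between genotypes numbered 1, and 7 with DESeq2 (Reep3, Cd200r1, Slc2a1, Gbp9, Hey1, Cnga1 and Gm9855), 2 without the low-count filter, 0 without Glut1Tg 1 and WT 2, 14 without those and Glut1Tg 3 (5 of them the sex-linked genes, as the Glut1Tg libraries left are the Xist-high ones), 0 in mouse group 1 alone and 1 to 2 with single libraries left out. Genes called between mouse groups numbered 3576, and 561 without Glut1Tg 1 and WT 2, 790 among WT libraries alone and 651 (without Glut1Tg 1) to 4575 (without Glut1Tg 3) with single libraries left out. The interaction gave 0 calls, 2 with DESeq2 (Aldh1l1 and Gm8730) and 0 to 140 with single libraries left out (140 without WT 2); without Glut1Tg 1 it could not be fitted. The cause of these changes was not tested.

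Reversed genotype log2 fold changes, none of them called, were those of Mycn (-0.30 without Glut1Tg 3; -0.30 to 1.95 with single libraries left out). Without the mouse group term they were -0.19 for Mlx, 0.19 for Mxd1, -0.037 for Mxd3, 0.12 for Mxi1 and 0.42 for Mnt. Without Glut1Tg 1, WT 2 and Glut1Tg 3 they were -0.031 for Mlx, 0.061 for Mxd4 and 0.045 for Mnt. Between mouse groups Mycn reversed to 0.17 without Glut1Tg 1, 0.55 without Glut1Tg 1 and WT 2 and 0.54 without Glut1Tg 3 as well (-1.54 to 0.17 with single libraries left out). Mxd4 reversed to 0.15, 0.30 and 0.30 in those settings, to 0.078 without the genotype term and to 0.15 among WT libraries alone (-0.32 to 0.15 with single libraries left out).

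Deviations of same-numbered libraries from their genotype means correlated at -0.51, -0.59, 0.23 and -0.21 for numbers 1 to 4. Mouse group was not removed, and the libraries numbered 1, 2 and 4 lie in opposite mouse groups. These values therefore cannot show whether the replicate numbers pair the libraries. With the number as a replicate block in place of mouse group, 0 genes were called (67 at an unadjusted p under 0.05), and genotype log2 fold changes of -0.18 for Mlx, 0.15 for Mxd1, 0.086 for Mxi1 and 0.37 for Mnt were reversed.

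With 4 and 5 libraries of uneven genotype in the mouse groups, a mouse group difference rests on few libraries, and only 1 Glut1Tg library represents the transgene in mouse group 2. Mycn, at 10 to 49 counts in 8 libraries, is limited by depth; the other members are not.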

Other observations

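Marker lists of other cell types gave 1 called gene between mouse groups, the cytotoxic granule gene Nkg7 (log2 fold change 1.38; edgeR adjusted p = 0.0499), 1 of 2 NK cell genes tested. Summed NK cell markers ranged from 43.0 to 176 CPM in mouse group 2 and from 25.6 to 66.8 CPM in mouse group 1. Glut1Tg 1 and WT 2 held 176 and 124 CPM, and WT 4 and 5 held 43.0 and 43.8 CPM. Without Glut1Tg 1 and WT 2, 0 of 2 NK cell genes tested were called (median log2 fold change 0.18), where 3.74% of genes passed. The 9 mast cell and basophil, 8 myeloid, 3 B cell, 6 erythroid and platelet, 2 CD8 T cell and 5 sex-linked genes tested gave 0 calls between mouse groups. All 9 mast cell genes had negative mouse group fold changes, with a median log2 fold change of -1.47; without Glut1Tg 1 and WT 2, 5 of the 9 were positive with a median of 0.20 (myeloid 8 of 10 positive, median 0.38). In the full set the mast cell sum reached 853 CPM in mouse group 2 and 2534 CPM in mouse group 1. B cell markers summed to 3.71 to 6.90 CPM in mouse group 2 and 5.67 to 9.67 CPM in mouse group 1, and CD8 markers to 7.07 to 9.60 CPM and 8.69 to 10.5 CPM. Erythroid and platelet markers summed to 4.31 to 275 CPM in mouse group 2 and 48.8 to 997 CPM in mouse group 1.

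Of the 10 Treg markers, Il2ra (log2 fold change 2.32; edgeR adjusted p = 0.0138) and Tnfrsf18 (0.90; edgeR adjusted p = 0.0325) were higher and Ctla4 (-0.71; edgeR adjusted p = 0.0197) was lower in mouse group 2. Without Glut1Tg 1 and WT 2 none of the 10 passed, where 3.74% of genes did. With all libraries none of the marker lists held a gene called between genotypes; without Glut1Tg 1, WT 2 and Glut1Tg 3 all 5 sex-linked genes were called, 1 higher and 4 lower in Glut1Tg.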
